A study of Mus musculus with 4 samples.

Results

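Levels of the FoxO factors and of the genes that limit oxidative damage were followed in single hematopoietic stem and progenitor cells (HSPCs) from the bone marrow of young and aged mice. The 10 genes were taken by symbol from the 28692 genes of the count tables, and each symbol matched 1 gene in each of the 4 pools. They comprised 3 transcription factors of the FoxO family (Foxo1, Foxo3 and Foxo4), Txnip, the factor Nfe2l2 and 5 enzymes (Sod1, Sod2, Cat, Gpx1 and Prdx1). All mice were C57BL/6-CD45.2 males with no transgene or treatment named in the labels. The young groups were 2 to 3 months old (pool A of 2 mice, pool B of 3 mice) and the aged groups were 17 to 18 months old (pool A of 3 mice, pool B of 2 mice). In both ages, marrow was depleted of lineage-positive cells and sorted for cells positive for c-Kit and Sca-1 and negative for Flt3. The libraries were made with the 10x Chromium 3' kit. At each age pool A was processed at the HalioDX facility and pool B at TGML, so a facility is named here by its letter. Titles and source names fixed the age, since the longer descriptions of young B and aged A give the opposite age. The number of mice in a pool is taken from the study's methods. Values listed over the 4 pools are in the order young A, young B, aged A, aged B. Each pool mixes mice, so a pool and not a mouse is the replicate.

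FoxO factors are transcription factors that growth factor signalling through AKT keeps out of the nucleus. In the nucleus they switch on genes for cell cycle arrest, autophagy and resistance to oxidative stress, and loss of FoxO factors in mouse HSCs is known to raise reactive oxygen species and to end quiescence. Nfe2l2 encodes NRF2, which KEAP1 holds in check and which drives antioxidant genes through the antioxidant response element. Txnip encodes a protein that binds thioredoxin and limits glucose uptake. The superoxide dismutases Sod1 (cytosol) and Sod2 (mitochondria) turn superoxide into hydrogen peroxide, which catalase (Cat), glutathione peroxidase 1 (Gpx1) and peroxiredoxin 1 (Prdx1) remove.

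On GRCm38, GENCODE M21 places Foxo1 at chr3:52268336-52353221 (+), Foxo3 at chr10:42181841-42276755 (-) and Foxo4 at chrX:101254528-101260873 (+). Txnip lies at chr3:96557957-96561883 (+) and Nfe2l2 at chr2:75675513-75704641 (-). The enzyme genes are Sod1 at chr16:90220754-90226329 (+), Sod2 at chr17:13006846-13040063 (+), Cat at chr2:103453849-103485160 (-), Gpx1 at chr9:108338903-108340343 (+) and Prdx1 at chr4:116685544-116700822 (+). All are protein-coding. Compared as whole gene spans, Foxo1 overlaps Gm38034 and Nfe2l2 overlaps Gm24996 on the same strand, so their counts may carry an added uncertainty. Whether counted exons overlap was not tested. Txnip overlaps Gm15441, Foxo1 overlaps Gm20402 and Sod1 overlaps Scaf4 on the other strand.

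RefSeq promoters on GRCm38.p6 (250 bases before to 50 after the RefSeq start) were found for 9 of the 10 genes. Foxo4 had no entry. That start can differ from the GENCODE start above, as for Sod2, whose window chr17:13007589-13007888 lay inside the gene. The promoters were searched on both strands for the FoxO motif GTAAACA, the antioxidant response element TGACNNNGC, the E-box CACGTG and CCAAT. Matches that overlap were each counted. Txnip was the 1 member with the FoxO motif, 121 bases before its start. Of all 32851 promoters of this length, 3.65% held that motif. The 250 bases before the Txnip start are shown because Txnip differed widely between classes of cells below. They lie at chr3:96557707-96557956 on the plus strand, and capitals mark the FoxO motif.

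Txnip: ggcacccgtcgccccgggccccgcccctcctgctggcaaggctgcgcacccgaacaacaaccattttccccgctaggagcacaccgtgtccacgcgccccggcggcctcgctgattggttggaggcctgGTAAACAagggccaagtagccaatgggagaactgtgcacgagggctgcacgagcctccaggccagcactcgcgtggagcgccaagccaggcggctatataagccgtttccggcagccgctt

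The antioxidant response element was found in Sod1, Prdx1 and Nfe2l2, against 12.4% of all promoters. Windows of 60 bases around the 3 matches are shown, since antioxidant genes are the kind that NRF2 is known to drive, and capitals mark the match on whichever strand it lay. They lie at chr16:90220686-90220745 (+) for Sod1, chr4:116685446-116685505 (+) for Prdx1 and chr2:75704854-75704913 (-) for Nfe2l2.

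Sod1: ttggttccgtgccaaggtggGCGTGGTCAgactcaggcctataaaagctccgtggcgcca
Prdx1: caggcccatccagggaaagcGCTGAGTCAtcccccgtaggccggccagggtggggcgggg
Nfe2l2: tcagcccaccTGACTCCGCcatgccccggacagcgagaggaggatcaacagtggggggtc

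The E-box was in none of the 9 (7.15% of all promoters), and CCAAT was in 5, namely Foxo1, Txnip, Sod1, Sod2 and Cat (37.4% of all promoters). A match describes letters only and says nothing of binding in these cells.

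Of 15566 barcodes, 14915 were kept, with medians of 5674 to 6719 unique molecular identifiers (UMIs, 1 per captured transcript) per cell and 16399999 to 36446168 UMIs per pool. Of the sort genes, Kit was at 71.7 to 164 CPM (UMIs of the gene scaled to a total of 1000000) and Ly6a, which encodes Sca-1, at 164 to 355 CPM. Flt3, which the sort excluded, was at 48.0, 15.0, 10.5 and 2.40 CPM over the 4 pools. Cd34 was at 288, 234, 117 and 61.0 CPM and Cd48 at 76.8, 69.5, 31.6 and 11.6 CPM, each lower in both aged pools. Slamf1 was higher in both, at 10.3, 9.02, 42.5 and 45.5 CPM. The pools shared 119 barcodes over all pairs, of which 0 had identical profiles. Aged A stood apart by its immediate-early genes, which respond fast to handling and stimulation: their summed level over a list of 10 (Fos, Jun, Egr1 and others, with no gene at 0 in any pool) was 1429 CPM in young A, 424 in young B, 5112 in aged A and 941 in aged B. Young B stood apart by a list of 6 erythroblast genes, at 1063 CPM against 82.3 to 345 CPM elsewhere. In that list Slc4a1 was at 0 in aged B and no other gene was at 0 in any pool. Lists of 6 genes for B and plasma cells (236, 254, 1148 and 453 CPM over the 4 pools) and of 6 endothelial genes (48.8, 42.6, 141 and 169 CPM) had the 2 aged pools above the 2 young ones. Of the endothelial genes Cdh5 was at 0 in young B and aged B and Plvap in young B. Whether these sums come from such cells was not tested, nor was the part of such cells in the age differences given here.

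The first question was whether the 10 genes differed between young and aged HSPCs. None was called. With each pool summed over its cells, the quasi-likelihood test of edgeR with Benjamini-Hochberg adjustment (threshold 0.05, facility letter as a block) called 0 of the 10, where 2.03% of 13555 genes were called, and DESeq2 also called 0. At an unadjusted p below 0.05, 1 member passed in edgeR and 0 in DESeq2, against 2175 and 1420 of the 13555 genes. The age p-values measure the spread left among these 4 pools once facility and age are fitted. That leaves few degrees of freedom for each gene, so edgeR also draws on spread shared across genes. In such sums fewer cells with a transcript and less transcript per cell cannot be told apart. With all 4 pools and no facility block, 0 genes were called over whole pools, against 275 with it. Fits that left out 1 pool also dropped this block, so their moves in genes called cannot be put down to the pool alone. The members called stayed at 0 in each case.

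Foxo3, the FoxO factor best known for keeping HSCs quiescent, came closest. It was at 43.4 CPM in young A, 32.5 in young B, 34.1 in aged A and 22.8 in aged B. The aged pool was the lower at both facilities, and the groups overlapped, since aged A lay above young B. The log2 fold change was -0.48 (SE 0.15, edgeR adjusted p = 0.224), and it was the member with an unadjusted p below 0.05.

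Foxo1 ran the other way, at 11.9 CPM in young A, 7.32 in young B, 17.6 in aged A and 9.88 in aged B. Its log2 fold change was 0.45 (SE 0.18, edgeR adjusted p = 0.324), again with overlapping groups. Foxo4 was at 6.39 CPM in young A, 4.76 in young B, 8.995 in aged A and 4.66 in aged B, a log2 fold change of 0.19 (SE 0.22).

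Txnip was at 327 CPM in young A, 226 in young B, 632 in aged A and 242 in aged B. Aged A was far above the other pools. On the log2(CPM + 1) scale the aged pool exceeded the young pool by 0.95 at facility A and by 0.10 at facility B. The fitted log2 fold change was 0.47 (SE 0.25, edgeR adjusted p = 0.469). It was -0.07 without aged A, in a fit that also dropped the facility block. With all 4 pools and no block it was 0.55. The immediate-early list ranks the 4 pools in the same order as Txnip, and the part of those genes in its level was not tested.

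Nfe2l2 and Prdx1 were the 2 members whose aged pools both lay above both young pools, a pattern found in 18.1% of all genes tested. Nfe2l2 was at 70.9 CPM in young A, 69.9 in young B, 94.95 in aged A and 87.5 in aged B, with a log2 fold change of 0.32 (SE 0.16, edgeR adjusted p = 0.427). Prdx1 was at 577 CPM in young A, 668 in young B, 814 in aged A and 719 in aged B, with a log2 fold change of 0.25 (SE 0.22, edgeR adjusted p = 0.683). The reverse pattern, both aged pools below both young pools, was met by 0 members and by 13.6% of all genes.

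The remaining enzymes overlapped between ages. Their log2 fold changes were -0.10 for Sod2, -0.16 for Sod1, -0.25 for Cat and -0.30 for Gpx1, with SEs of 0.19 to 0.24. Cat differed in direction between facilities: it was at 53.6 and 65.3 CPM in the young and aged pools of facility A and at 56.1 and 34.8 CPM in those of facility B. The study's methods give more reads per cell for aged A and young B than for young A and aged B. The part of sequencing depth in such differences was not tested. Gpx1 was highest in young B at 1080.3 CPM, the pool with the most erythroblast RNA, against 766 to 809.8 CPM in the others, and the part of those cells or their RNA was not tested. Over the 10 members, 5 were higher and 5 lower in aged pools, with a median log2 fold change of 0.04 against 0.01 over all genes tested.

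**Figure D1:**
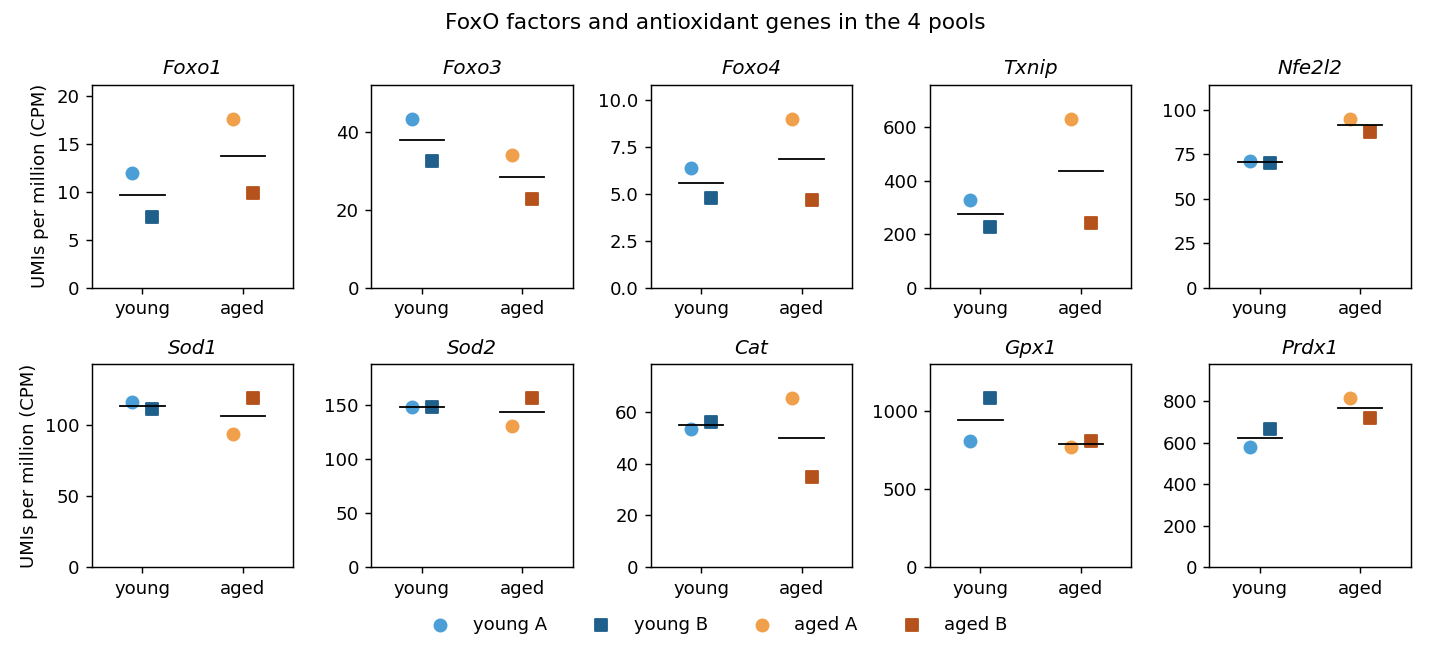
Level of each gene in the 4 pools, in CPM of the summed counts of a pool (vertical axis, starting at 0 in each panel), by age. Circles are pools of facility A, squares are pools of facility B, and the bar is the mean of 2 pools. Only Nfe2l2 and Prdx1 have both aged pools above both young pools, and Txnip in aged A reaches 632 CPM.

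Since the mix of cells differs with age, the age test was repeated in cells chosen by lists of marker genes. Cells were thinned to 3000 UMIs, and a cell met a list of 10 marker genes when at least 3 of them had a UMI, with the fullest list winning and ties left out. There were 5 lineage lists (HSC, erythroid, neutrophil, basophil and mast, and lymphoid) and 2 cycle lists (replication, such as Mcm2 and Pcna, and division, such as Mki67 and Top2a). None of the 10 members is on a list. The HSC list holds Slamf1 and Procr, which the study reports as higher in aged cells, so meeting it is not independent of age. Cells that met no list made up 10.8% of cells in young A, 13.8% in young B, 4.19% in aged A and 7.93% in aged B. The part of this choice of cells in the age tests by list was not tested. Cells of neither cycle list made up 67.9% of cells in young A, 73.5% in young B, 82.0% in aged A and 84.8% in aged B.

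In cells that met no list at all (132 to 563 per pool), 0 of the 10 members were called against 1.96% of genes tested. An edgeR unadjusted p below 0.05 was met by 0 members, against 960 of 9929 genes. In HSC-list cells outside the cycle lists (1165 to 3046 per pool), 0 were called against 1.15% of genes. Of the members Foxo3 alone had an edgeR unadjusted p below 0.05, against 1645 of 12612 genes. DESeq2 called 0 members in both. In the latter cells Foxo3 was at 46.5 CPM in young A, 33.9 in young B, 34.5 in aged A and 24.2 in aged B, a log2 fold change of -0.49 (SE 0.15, edgeR adjusted p = 0.288). There Prdx1 had a log2 fold change of 0.38, Nfe2l2 of 0.28, Txnip of 0.22, Foxo1 of 0.19 and Foxo4 of 0.16. On the other side of 0 lay Cat at -0.37, Gpx1 at -0.28, Sod1 at -0.13 and Sod2 at -0.08. The SEs of these 9 were 0.15 to 0.24 and their edgeR adjusted p-values 0.554 to 0.913. The HSC-list fit was added after the data were seen.

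Other genes of the same pathways were read from 9 lists. Over whole pools the glutathione list held the clearest age differences. Gpx8, a peroxidase of the endoplasmic reticulum, was at 0.466 CPM in young A, 0.976 in young B, 11.2 in aged A and 16.1 in aged B (log2 fold change 4.26, SE 0.25, edgeR adjusted p = 0.00825). Gpx3, the secreted plasma peroxidase, was at 1.02 CPM in young A, 0.915 in young B, 11.1 in aged A and 8.62 in aged B (3.29, SE 0.24, edgeR adjusted p = 0.0132). They were the 2 called of 12 genes on that list.

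Ncf4, a cytosolic subunit of the NADPH oxidase that makes superoxide in phagocytes, fell with age. It was at 23.9 CPM in young A, 25 in young B, 7.26 in aged A and 6.16 in aged B (log2 fold change -1.92, SE 0.18, edgeR adjusted p = 0.0217), the 1 called of 7 oxidase genes tested. Maff, a small partner of NRF2, was at 10.1 CPM in young A, 0.732 in young B, 28.7 in aged A and 2.76 in aged B. It was called at an edgeR adjusted p of 0.0499 (log2 fold change 1.57) through the rise within each facility, although the groups overlapped. The immediate-early list ranks the 4 pools in the same order as Maff, and the part of those genes in its level was not tested. Maff was the 1 called of 16 genes on the NRF2 list. In cells that met no list, edgeR called 1 of 8 tested genes of the glutathione list, 0 of 5 oxidase genes and 0 of 16 NRF2 genes. Not all of these calls were thus repeated there. In HSC-list cells outside the cycle lists Gpx8 (3.76), Gpx3 (2.81) and Ncf4 (-2.50) were called again by edgeR, and Maff was not (1.22). Without the facility block no gene kept a call over whole pools, these 4 included. In the other 6 lists 0 genes were called with age. Their genes of smallest p were Sgk1, a kinase that inhibits FoxO factors (1.46, SE 0.29, edgeR adjusted p = 0.0883), Cited2 of the FoxO targets (0.72, SE 0.17, edgeR adjusted p = 0.13) and Srxn1, which restores oxidised peroxiredoxins (0.96, SE 0.17, edgeR adjusted p = 0.0766). The remaining 3 were Mthfd2 (-0.71), Hmox1 (-0.52) and Arrdc4 (0.49), with edgeR adjusted p-values of 0.15 to 0.286. On the list of 20 FoxO target genes, 0 were called by edgeR over whole pools. Of the 20, 15 were higher and 5 lower in aged pools, where 51.5% of all genes tested were higher. The median log2 fold change was 0.16 against 0.01 over all genes. In HSC-list cells outside the cycle lists 12 were higher and 8 lower, with 0 called, where 51.7% of all genes tested were higher. The median there was 0.08 against 0.01 over all genes.

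The second question was how the members differ with the cell cycle within a pool. Cells meeting a cycle list were summed per pool and compared with the cells of the same pool that met neither list, with pool as a block. Members moved in both directions: Txnip and the FoxO factors were lower in replicating cells, and Prdx1, Sod1 and Gpx1 were higher. Of the 10 members, edgeR called 3 higher and 6 lower with the replication list (against 50.1% of genes called), and 3 higher and 4 lower with the division list (against 43.7%). The count of members called is to be read against those backgrounds. Of 2536 replication-list cells 977 sat at the minimum of 3 genes, as did 84 of 822 division-list cells. Median UMIs per cell ran from 5503 to 6354 outside the cycle lists, from 7585 to 9442 in replication-list cells and from 9998 to 12723 in division-list cells, and the part of cell size or depth was not tested.

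Txnip had the widest difference of the members. In cells of neither cycle list it was at 436 CPM in young A, 284 in young B, 727 in aged A and 277 in aged B. In replication-list cells it was at 184 CPM in young A, 126 in young B, 346 in aged A and 111 in aged B. In division-list cells it was at 164 CPM in young A, 127 in young B, 205 in aged A and 92.6 in aged B. It was lower in both cycle classes than outside them in 4 of 4 pools. The log2 fold change was -1.19 (SE 0.06, edgeR adjusted p = 9.55e-10) for replication and -1.49 (SE 0.09, adjusted p = 1.07e-09) for division.

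Foxo1 was at 13.8, 8.44, 19.1 and 11.1 CPM outside the cycle lists over the 4 pools. In replication-list cells of the same pools it was at 9.10, 4.28, 12.6 and 5.35 CPM, lower in 4 of 4 pools. The log2 fold change was -0.71 (SE 0.13, edgeR adjusted p = 0.00045) for replication and -0.67 (SE 0.19, adjusted p = 0.0101) for division. Foxo3 fell by 0.38 on the log2 scale with replication (SE 0.08, edgeR adjusted p = 0.000903), and its difference with division was 0.06 (SE 0.11). Foxo4 fell by 0.58 with replication (SE 0.18, edgeR adjusted p = 0.0144) and was not called with division (-0.14, SE 0.22). Foxo4 lost its call with DESeq2, with lists met at 2 genes and without either aged pool. Foxo3 lost its call when lists were read from all UMIs of a cell (-0.15, edgeR adjusted p = 0.0714).

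Nfe2l2 fell by 0.38 (SE 0.06) on the log2 scale with replication and by 0.48 (SE 0.09) with division, with edgeR adjusted p-values of 0.000193 and 0.000392, and it was lower in 4 of 4 pools in both. Cat fell by 0.27 with replication (SE 0.08, edgeR adjusted p = 0.00824), a call lost without either young pool and when lists were read from all UMIs, and its difference with division was -0.01 (SE 0.09).

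The enzymes did not move as 1 group. Prdx1 was at 490.05, 580.1, 742 and 653 CPM outside the cycle lists over the 4 pools, and at 722, 836, 1029.96 and 957 CPM in replication-list cells. It rose in 4 of 4 pools, by 0.53 on the log2 scale with replication (SE 0.05, edgeR adjusted p = 3.74e-07) and 0.51 with division (SE 0.06, adjusted p = 4.91e-06). Gpx1 rose by 0.20 and 0.37 (edgeR adjusted p = 0.0113 and 6.24e-05) and Sod1 by 0.22 and 0.26 (edgeR adjusted p = 0.0039 and 0.00655). The replication call of Sod1 was lost when lists were read from all UMIs (0.13, edgeR adjusted p = 0.0767), where 6 of the 9 replication calls remained. The dismutases parted: mitochondrial Sod2 differed by 0.01 (SE 0.06) with replication and fell by 0.40 (SE 0.08) with division (edgeR adjusted p = 0.000706), where cytosolic Sod1 rose.

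**Figure D2:**
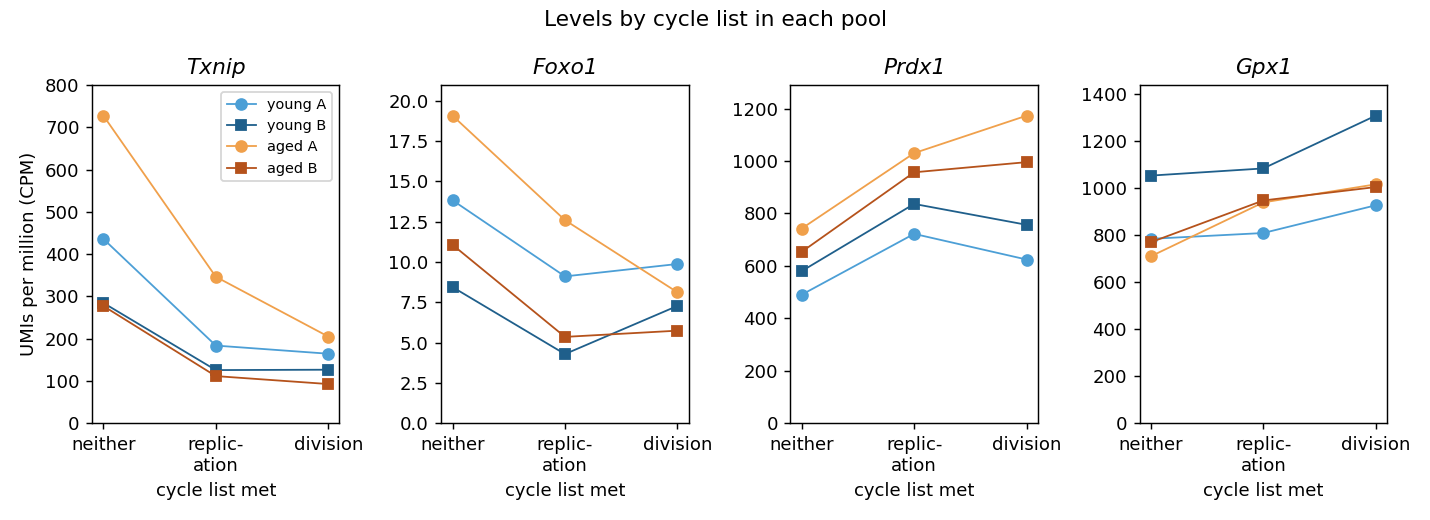
Levels of Txnip, Foxo1, Prdx1 and Gpx1 (CPM of summed counts, axes from 0) in cells that met neither cycle list, the replication list or the division list. Each line is 1 pool, circles are facility A and squares facility B. Txnip and Foxo1 lie lower, and Prdx1 and Gpx1 higher, in both cycle classes than in the cells of neither list, in 4 of 4 pools.

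Cycling cells were less frequent among HSC-list cells than outside the lineage lists, so the contrast was repeated within HSC-list cells alone, an analysis added after the data were seen. Of the 9 members called with replication 7 kept their call and direction, and Foxo4 and Gpx1 lost it. Of the 7 called with division 5 kept it, and Foxo1 and Sod1 lost it. Txnip within HSC-list cells had log2 fold changes of -0.89 (SE 0.06) with replication and -1.49 (SE 0.09) with division, and Prdx1 had 0.47 (SE 0.04) and 0.39 (SE 0.07). Without pool as a block, 0 members were called with replication and only Txnip with division. Over all cells, Foxo1 lost its division call without aged B and Sod1 without young A.

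Genes listed as FoxO targets were mostly lower in cycling cells. Of 19 tested, edgeR called 1 higher and 16 lower with replication and 2 higher and 11 lower with division. Of all genes tested, 23.3% were called higher and 26.7% lower with replication, and 22.3% and 21.5% with division. The list medians were -0.66 and -0.52, against -0.06 and -0.02 over all genes tested. Pik3ip1, an inhibitor of PI3-kinase, fell by 1.05 and 1.20 on the log2 scale, and the autophagy gene Gabarapl1 fell by 0.78 and 0.98. The cell cycle inhibitors did not follow in both classes: Ccng2 fell by 0.70 with replication and rose by 1.35 with division, and Cdkn1b fell by 0.51 and rose by 0.37 (all 4 called by edgeR). Bcl2l11, which promotes apoptosis, was the 1 called higher with replication (0.51).

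The other lists are read against the same shares of all genes. With replication, in the thioredoxin and peroxiredoxin list 6 of 16 rose, among them thioredoxin itself (Txn1, 0.63) and Prdx4 (0.81), and 3 fell, among them Prdx5 by 0.19. In the NADPH supply list 4 of 9 rose and 1 fell, led by the mitochondrial folate enzyme Mthfd2 (2.36). Of the 16 NRF2 partners and targets, 2 rose and 7 fell, where Osgin1 fell by 1.08 and Nqo1 rose by 0.33. Of 15 regulators of FoxO tested 1 rose and 7 fell, where Sgk1 fell by 1.52. Arrdc4, which encodes an arrestin of the Txnip family, fell by 0.92, as did Arrdc3 and Mlxip by 0.54 and 0.51, the 3 called of 6 on that list. In the glutathione list 3 of 11 rose, with Gsr by 0.50, and 2 fell, with Gpx3 by 1.72. The superoxide, heme and iron list had 3 of 9 rise and 2 fall, and the NADPH oxidase list 1 of 5 in each direction.

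With division, 22.3% of all genes tested were called higher and 21.5% lower. Against these shares, the counts were 5 up and 6 down of 16 in the thioredoxin list. There Txn1 rose by 0.84 and Prdx6 fell by 0.50. In the NRF2 list the counts were 2 up and 8 down of 16, where Nqo1 rose by 1.09. They were 2 up and 1 down of 9 in the NADPH supply list, 2 and 2 of 15 in the regulators, 1 and 0 of 9 in the glutathione list, 2 and 4 of 9 in the superoxide, heme and iron list, 0 and 2 of 5 in the oxidase list, and 0 and 1 of 6 in the Txnip relatives, again Arrdc4.

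**Figure D3:**
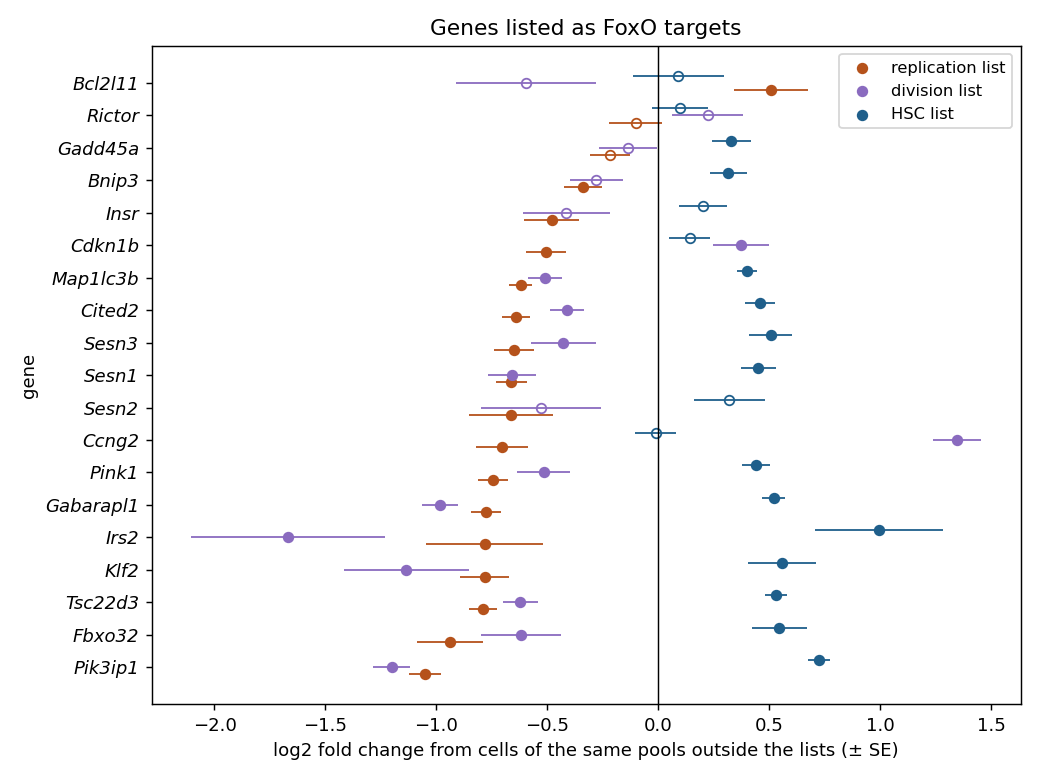
Log2 fold change with its standard error (horizontal axis) of the 19 tested genes on the FoxO target list (vertical axis, ordered by the replication value), for cells of the replication, division and HSC lists against cells of the same pools outside the lists. Filled points passed an adjusted p of 0.05 in edgeR and open points did not. Replication values are negative except for Bcl2l11, and HSC values are positive except for Ccng2 at -0.01.

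The third question was how the members differ between lineage classes within a pool. The reference was the cells of the same pool that met no lineage list. HSC-list cells made up 59.2% to 81.7% of cells, so they describe the bulk of the sort and not a rare stem cell. They detected a median of 4 or 5 of the 10 HSC genes and 0 or 1 of those of each other lineage list, and 2672 of 10351 sat at the minimum of 3. Cycling was less frequent in them than in the reference. In HSC-list cells 5.98% to 16.1% met the replication list and 1.32% to 3.61% the division list, against 25.7% to 37.1% and 8.74% to 15.5% of the reference cells.

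In HSC-list cells edgeR called 3 members higher and 2 lower, against 36.8% of genes called. Txnip was at 425 CPM in young A, 286 in young B, 719 in aged A and 272 in aged B, where the reference was at 209.7, 154, 347 and 147 CPM. It was higher in 4 of 4 pools (log2 fold change 0.93, SE 0.05, edgeR adjusted p = 8.33e-09). Foxo1 was at 15.4, 9.37, 18.9 and 10.6 CPM in the same order of pools, against 7.65, 4.43, 9.65 and 7.76 CPM in the reference (0.83, SE 0.13, adjusted p = 0.000131 by edgeR). Nfe2l2 rose by 0.26 (SE 0.05, edgeR adjusted p = 0.00138).

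Prdx1 and Gpx1, which were higher in cycling cells, fell by 0.36 (SE 0.04) and 0.24 (SE 0.05) on the log2 scale (edgeR adjusted p = 6.75e-06 and 0.00107), each in 4 of 4 pools. Foxo3, Sod1, Sod2 and Cat differed by -0.08 to 0.07 and were not called, and Foxo4 differed by 0.34 (SE 0.16, edgeR adjusted p = 0.118). Restricted to cells of neither cycle list, an analysis added after the data were seen, Txnip (0.59, SE 0.05), Foxo1 (0.60, SE 0.17) and Gpx1 (-0.21, SE 0.05) kept their calls. Nfe2l2 (0.10) and Prdx1 (-0.13) lost theirs, with edgeR adjusted p-values of 0.319 and 0.0575. Without pool as a block none of the 5 calls remained, and when lists were read from all UMIs of a cell only that of Txnip did. The reference then held 213, 104, 28 and 58 cells over the 4 pools, against 1177, 572, 224 and 583 in the main fit. In that fit Foxo1 was at 0.42 (SE 0.35), Nfe2l2 at 0.36 (SE 0.16), Gpx1 at -0.34 (SE 0.12) and Prdx1 at -0.20 (SE 0.11). With lists met at 2 genes Gpx1 lost its call (-0.19, edgeR adjusted p = 0.0894) and the other 4 kept theirs. The reference there held 144, 110, 25 and 102 cells. These smaller references also served the other lineage classes below, and their part in the lost calls was not tested.

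On the FoxO target list 13 of 19 genes were called higher in HSC-list cells and 0 lower, where 17.1% of all genes tested were called higher and 19.7% lower, with a median of 0.44 against 0.02 over all genes. Pik3ip1 rose by 0.72 and Irs2 by 0.99. The NRF2 list had 7 of 16 rise and 0 fall, with Osgin1 at 0.87, and Gpx3 rose by 1.97, 1 of 2 called of 10 on the glutathione list. In the thioredoxin list 3 of 16 rose and 6 fell, where Txn1 fell by 0.50, and in the NADPH supply list 0 rose and 4 of 9 fell, where Mthfd2 fell by 1.42. Of the FoxO regulators 4 of 15 rose, among them Pik3r1 (0.63) and Sirt1 (0.59), and 0 fell. These counts come from the same cells as the cycle contrast, since the HSC-list reference is rich in cycling cells, and are not a second line of evidence for it.

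On the same list the committed classes had these counts. In erythroid-list cells 1 of 16 tested rose and 7 fell, in neutrophil-list cells 0 of 16 rose and 6 fell, and in basophil and mast-list cells 2 of 16 rose and 4 fell. Of all genes tested, 10.7% were called higher and 11.1% lower in erythroid-list cells, 12.9% and 11% in neutrophil-list cells, and 10.6% and 8.53% in basophil and mast-list cells. The list medians were -0.40, -0.30 and -0.04, against -0.00423, -0.02 and -0.07 over all genes. Whether the classes differ from each other in this was not tested.

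Erythroid-list cells (76 to 337 per pool) had 3 members called higher and 0 lower, against 21.8% of genes called. Nfe2l2 was at 87.4, 98.7, 106 and 92.9 CPM over the 4 pools, against 60.3, 61.6, 77.2 and 75.3 CPM in the reference. It was higher in 4 of 4 pools (0.54, SE 0.09, edgeR adjusted p = 0.000506). Gpx1 rose by 0.34 (SE 0.05) and Sod2 by 0.32 (SE 0.07), with edgeR adjusted p-values of 0.000175 and 0.00527. In cells of neither cycle list, where fewer cells were summed, Gpx1 kept its call (0.30) and Nfe2l2 (0.35, SE 0.14) and Sod2 (0.14, SE 0.10) lost theirs. When a cell met a list with 2 genes, or without pool as a block, 0 of the 3 calls remained, and when lists were read from all UMIs only that of Nfe2l2 did. Without young A Txnip was also called, at -0.37 (edgeR adjusted p = 0.0498). In the thioredoxin list 6 of 16 rose, with Glrx5, which serves iron-sulfur cluster assembly, at 1.02, and 3 fell. Gclm, which aids glutathione synthesis, rose by 1.03. Blvrb, a biliverdin reductase on the superoxide, heme and iron list, is also on the erythroid list that chose these cells, so its value is not a result.

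Neutrophil-list cells (39 to 203 per pool) had the highest Gpx1. It was at 1302, 1866, 1538 and 1916 CPM over the 4 pools, against 796, 1061, 889 and 889.7 CPM in the reference. The 2 ranges did not overlap (log2 fold change 0.98, SE 0.07, edgeR adjusted p = 1.76e-10). Txnip was at 122, 100.3, 182 and 46.5 CPM there and fell by 0.77 (SE 0.11, edgeR adjusted p = 2.48e-05), lower than the reference in 4 of 4 pools. These were the 2 members called of 9 tested, against 23.9% of genes, and both kept their call in cells of neither cycle list. When a list was met at 2 genes, or without pool as a block, Gpx1 kept its call and Txnip lost it, and without young B Prdx1 and Sod2 were also called. Without aged B Cat was also called, at 0.38 (edgeR adjusted p = 0.0379). Foxo4 was too low to be tested.

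The NADPH oxidase makes superoxide in phagocytes. All 5 NADPH oxidase genes tested rose in neutrophil-list cells, led by Ncf1 at 2.82 and Ncf4 at 1.44. Of the NADPH supply list 5 of 8 rose, with Idh1 at 1.62 and Pgd at 1.08, and glutathione reductase (Gsr), which regenerates the cofactor of Gpx1, rose by 1.83. Msrb1, a selenium enzyme that repairs oxidised methionine, rose by 2.23, while Prdx4 fell by 1.06.

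Basophil and mast-list cells (25 to 144 per pool) had 2 of 9 members called higher, against 19.2% of genes. Gpx1 was at 1057, 1196, 1029.8 and 1174 CPM over the 4 pools (0.48, SE 0.09, edgeR adjusted p = 0.000171), above the reference in 4 of 4 pools. Prdx1 rose by 0.29 (SE 0.09, edgeR adjusted p = 0.0207) and was higher in 3 of 4 pools, a call lost without any 1 of young A, young B and aged A, with lists met at 2 genes, with no low-count filter and in cells of neither cycle list. These cells detected a median of 3 or 4 of the 10 neutrophil genes beside 7 or 8 of their own. When lists were read from all UMIs, or without pool as a block, neither call remained. Of 5 oxidase genes 4 rose, with Ncf1 at 3.18. Lymphoid-list cells numbered 23, 11, 3 and 0 over the 4 pools and were not tested.

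Ordered by its mean over the 4 pools, Txnip ran from 426 CPM (SD 207) in HSC-list cells to 215 (SD 92.7) in cells of no lineage list, 188 (SD 93.1) in erythroid-list, 171 (SD 56.4) in basophil and mast-list and 113 (SD 56.0) in neutrophil-list cells. These SDs are between pools and are shared by the classes, so neighbours are read from the tests within pools. Against no-list cells HSC-list cells were called higher and neutrophil-list cells lower, while erythroid-list and basophil and mast-list cells were not called. For Gpx1 the order was 1655 CPM (SD 289) in neutrophil-list, 1124 (SD 184) in erythroid-list, 1114 (SD 82.8) in basophil and mast-list, 909 (SD 111) in no-list and 794 (SD 143) in HSC-list cells. Against no-list cells the first 3 were called higher and HSC-list cells lower, and the means of erythroid-list and basophil and mast-list cells differed by less than their SD.

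**Figure D4:**
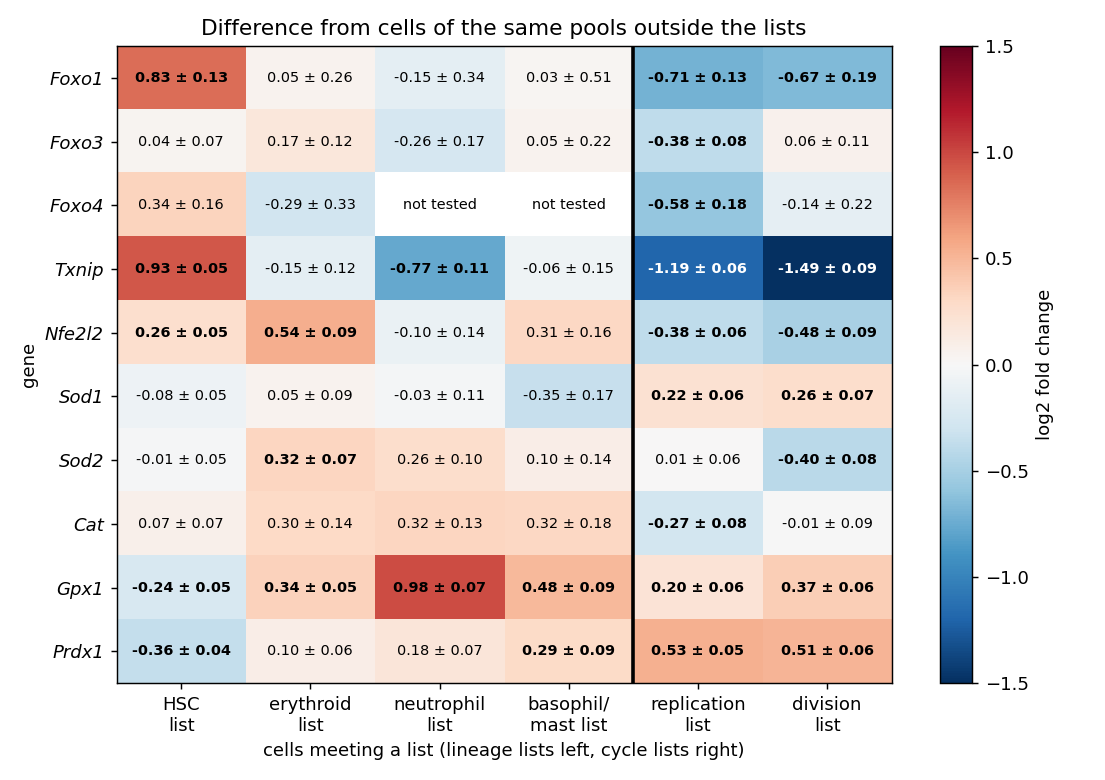
Log2 fold change ± standard error of each gene (rows) for cells meeting each list (columns) against cells of the same pools that met no lineage list (4 left columns) or neither cycle list (2 right columns). Red is higher, blue is lower, and bold values passed an adjusted p of 0.05 in edgeR. Txnip ranges from 0.93 in HSC-list to -1.49 in division-list cells, and Gpx1 reaches 0.98 in neutrophil-list cells.

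The age difference of HSC-list cells was then compared with that of the no-list cells in a class by age term. Of the 10 members 0 were called by edgeR and 0 by DESeq2, against 1.39% of genes. An unadjusted p below 0.05 was met by 1053 of 12633 genes in edgeR and by 321 in DESeq2. With either tool 1 member had such a p. In edgeR this was Gpx1. Its term was -0.22 (SE 0.08, edgeR adjusted p = 0.219), and it was called without aged B. Gpx1 was at 731, 1005, 685 and 756 CPM in HSC-list cells over the 4 pools. For Txnip the term was -0.01 (SE 0.09), and its sign was not stable (-0.05 to 0.42 over the alternatives).

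Cell-to-cell spread was described by the Fano factor, the variance over the mean of UMIs per cell after thinning to 3000, which is near 1 for counting noise. Its median over genes was at most 1.01 in each pool. Txnip was the most variable member at facility A but not at facility B. It was at 1.62 in young A, 1.28 in young B, 1.69 in aged A and 1.23 in aged B, between the 207th and the 510th of 13555 genes. Its mean was 1.14, 0.794, 1.99 and 0.749 UMIs per cell, so the pools of facility A had both the higher mean and the higher factor. Gpx1 ranged from 1.21 to 1.37 and lay above Txnip in both pools of facility B, at 1.31 in young B and 1.28 in aged B. Prdx1 ranged from 1.12 to 1.21. The FoxO factors, dismutases, Cat and Nfe2l2 lay between 0.929 and 1.098 at means of 0.0140 to 0.471 UMIs per cell.

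The genes most like each member were ranked by Pearson's r of log2(CPM + 1) over 34 sums of cells, which share pools, classes and depth, and are given as a description. For Foxo1 they were Qsox1 (0.90), Pear1 (0.89) and 2810403A07Rik (0.89), and for Foxo4 Tcf4 (0.86), Acadm and Emcn (0.84 each). Foxo3 had weaker likenesses, with Fmnl1, Notch2 and Tnrc6c at 0.75 each. Txnip was followed by PISD (0.92), the kinase gene Pim1 (0.88) and glutamine synthetase Glul (0.87).

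For Gpx1 the likest genes were Dbi (0.85), the mitochondrial ATP synthase gene Atp5e (0.84) and Magoh (0.82), and for Prdx1 Eif2s2, Morf4l2 (0.80 each) and Uqcr11 (0.79). Nfe2l2 was nearest to Sord, Pgrmc1 (0.81 each) and Por (0.79), Sod1 to Eif3c (0.83), Ptpn11 (0.82) and Sf3a3 (0.80), Sod2 to Gsto1 (0.78), Rrp9 (0.74) and Ppan (0.71), and Cat to Dld, mt-Nd4l (0.80 each) and Rpl36-ps3 (0.77). Foxo1 and Foxo4 were below the level needed to be searched, so no member could name them. Foxo3 was searched and is not among the genes given for Foxo1 or Foxo4. Whether the FoxO factors vary together was not tested.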

How the data were processed

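The authors deposited, for each of 4 pools, a matrix of raw UMI counts per gene and cell made with Cell Ranger 2.2.0 on GRCm38. Which gene annotation was used is not stated by the labels or methods. Cells within 2 SD of the mean log UMI total of a pool were kept (14915 of 15566 barcodes), and doublets were not removed. Each cell was thinned to 3000 UMIs only to read the marker lists and the Fano factor, leaving out 0, 50, 176 and 4 shallower cells (young A, young B, aged A, aged B). All UMIs of a class were then summed per pool.

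Sums were tested with edgeR 4.0.16 (filterByExpr, TMM, quasi-likelihood) in R 4.3.3 and with DESeq2 1.42.0 as an alternative, at a Benjamini-Hochberg adjusted p of 0.05 over all genes tested. The facility letter was the block for age, as in the study's own use of platform as a grouping variable. Deviations of pools with the same letter correlated at 0.576 over 13555 genes. Pool was the block for classes. SE is the log2 fold change over the square root of F. CPM is scaled to a total of 1000000 UMIs in the sum. The members, lists and tests were chosen with earlier results of these data known. The rule for naming genes took the 10 members, at most 5 genes of a pathway list called with age (the largest changes, or the gene of smallest p where none was called) and the 3 likest genes among those with at least 20 CPM. Pathway genes named for the class and cycle comparisons were chosen after their values were seen. Total counts ranged from 16399999 to 36446168 per pool. Age p-values measure the spread between pools left after the facility block. Class p-values measure how the difference between classes within a pool varies from pool to pool.

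On simulated counts for the whole-pool age test (13186 unchanged genes), edgeR found 87 of 96 genes changed 4-fold, 33 of 103 changed 2-fold and 8 false calls. For the division test it found 99 of 102, 81 of 94 and 8 of 11277, and for the class by age term 85 of 96, 68 of 100 and 5 of 12109. The simulated counts held no facility or pool effect, so they give no error rate for the real pools. Alternatives were other tools and scalings, low-count filters, no block, each pool left out, all barcodes, thinned counts and other list rules. Tests on library size alone, in HSC-list cells only and in cells of neither cycle list only were chosen after seeing the data. Which genes of the B and plasma cell list were at 0 is not reported here.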

Additional observations from a re-analysis of the deposited data

How the results depend on the processing

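No called member changed direction under any alternative run. Calls between classes rest on comparing cells within a pool, since without the replicate block nearly all member calls were lost. Age rests on 2 pools a side, and without the facility block 0 genes were called over whole pools. In the age fits, here and below, leaving out a pool also dropped that block. The part of the pool and that of the block cannot be told apart there. The causes of these moves were not tested. Below, a class named by its list, such as HSC cells or neutrophil cells, means the cells that met that list and not a cell type.

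The counts of genes called as reported were 275 for age over whole pools, 195 for age outside all lists, 145 for age in HSC-list cells outside the cycle lists, 4395 for HSC cells, 2095 for erythroid cells, 2168 for neutrophil cells, 1636 for basophil and mast cells, 6060 for replication cells, 5058 for division cells and 175 for the class by age term. Genes called with DESeq2 numbered 543 for age over whole pools, 57 for age outside all lists, 292 for age in HSC-list cells outside the cycle lists, 1080 for erythroid cells, 1391 for neutrophil cells, 1072 for basophil and mast cells and 41 for the class by age term. Genes called without the replicate block numbered 0 for age over whole pools, 12 for age outside all lists, 0 for age in HSC-list cells outside the cycle lists, 173 for HSC cells, 130 for erythroid cells, 276 for neutrophil cells, 526 for basophil and mast cells, 687 for replication cells and 1049 for division cells. Genes called with no low-count filter numbered 774 for age over whole pools, 405 for age outside all lists and 632 for age in HSC-list cells outside the cycle lists. Genes called with library size only numbered 74 for age over whole pools. Genes called with lists met at 2 genes numbered 10 for age outside all lists (of 2552 tested, in 36, 28, 9 and 42 cells over the 4 pools), 2377 for HSC cells, 452 for erythroid cells, 556 for neutrophil cells, 738 for basophil and mast cells and 62 for the class by age term. Genes called with lists read without thinning numbered 308 for HSC cells, 942 for erythroid cells, 613 for neutrophil cells, 697 for basophil and mast cells and 103 for the class by age term. Genes called in cells of neither cycle list numbered 1800 for HSC cells, 841 for erythroid cells and 1291 for neutrophil cells. Genes called in HSC-list cells only numbered 3915 for replication cells and 3188 for division cells. With each pool left out in turn, genes called ranged over 0 to 287 for age over whole pools, 13 to 118 for age outside all lists, 0 to 255 for age in HSC-list cells outside the cycle lists, 1168 to 1769 for erythroid cells, 1282 to 2008 for neutrophil cells, 902 to 1604 for basophil and mast cells and 74 to 249 for the class by age term. Members called with lists read without thinning numbered 1 for HSC cells, 1 for erythroid cells and 0 for basophil and mast cells. Members called without the replicate block numbered 0 for HSC cells, 0 for erythroid cells, 1 for neutrophil cells, 0 for basophil and mast cells, 0 for replication cells and 1 for division cells. Members called in cells of neither cycle list numbered 3 for HSC cells, 1 for erythroid cells and 1 for basophil and mast cells. Members called with lists met at 2 genes numbered 0 for erythroid cells, 1 for neutrophil cells and 1 for basophil and mast cells. Members called with no low-count filter numbered 1 for basophil and mast cells. With each pool left out in turn, members called ranged over 2 to 4 for neutrophil cells, 1 to 2 for basophil and mast cells and 0 to 1 for the class by age term.

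Signs were compared for all members tested, with 2 exceptions. For the class by age term only Gpx1 and Txnip were read, and for age outside all lists only Foxo3, Nfe2l2, Txnip and Prdx1. Within that scope the log2 values of 60 uncalled results took the other sign. With lists met at 2 genes they were -0.59 for Txnip in age outside all lists, 0.070 for Sod2 in HSC cells, -0.038 for Sod1 in erythroid cells, 0.27 for Txnip in erythroid cells, 0.33 for Txnip in basophil and mast cells and 0.42 for Txnip in the class by age term. With lists read without thinning they were -0.31 for Foxo3 in HSC cells, 0.23 for Sod1 in HSC cells, -0.39 for Foxo3 in erythroid cells, 0.076 for Sod1 in neutrophil cells, -0.59 for Foxo3 in basophil and mast cells, -0.024 for Sod2 in basophil and mast cells, -0.012 for Foxo3 in division cells, 0.0023 for Foxo4 in division cells and 0.32 for Txnip in the class by age term. In cells of neither cycle list they were 0.11 for Sod1 in HSC cells and -0.058 for Sod1 in erythroid cells. With no low-count filter they were 0.039 for Sod2 in HSC cells and -0.014 for Sod2 in replication cells. With DESeq2 they were -0.026 for Foxo1 in erythroid cells, 0.018 for Sod1 in neutrophil cells and 0.015 for Txnip in the class by age term. Without the replicate block they were -0.00015 for Foxo1 in erythroid cells, -0.011 for Sod2 in replication cells and 0.0042 for Cat in division cells. In HSC-list cells only they were -0.049 for Sod2 in replication cells, -0.26 for Foxo3 in division cells and 0.16 for Foxo4 in division cells. With each pool left out in turn they ranged over -0.55 to 0.024 for Cat in age over whole pools, -0.14 to 0.47 for Foxo4 in age over whole pools, -0.62 to 0.013 for Gpx1 in age over whole pools, -0.50 to 0.18 for Sod1 in age over whole pools, -0.40 to 0.19 for Sod2 in age over whole pools, -0.069 to 0.98 for Txnip in age over whole pools, -0.24 to 0.67 for Txnip in age outside all lists, -0.071 to 0.39 for Foxo1 in age in HSC-list cells outside the cycle lists, -0.15 to 0.39 for Foxo4 in age in HSC-list cells outside the cycle lists, -0.63 to 0.060 for Gpx1 in age in HSC-list cells outside the cycle lists, -0.48 to 0.20 for Sod1 in age in HSC-list cells outside the cycle lists, -0.41 to 0.22 for Sod2 in age in HSC-list cells outside the cycle lists, -0.32 to 0.72 for Txnip in age in HSC-list cells outside the cycle lists, -0.043 to 0.021 for Sod2 in HSC cells, -0.014 to 0.16 for Sod1 in erythroid cells, -0.37 to 0.0031 for Txnip in erythroid cells, -0.36 to 0.027 for Foxo1 in neutrophil cells, -0.37 to 0.017 for Nfe2l2 in neutrophil cells, -0.087 to 0.047 for Sod1 in neutrophil cells, -0.38 to 0.23 for Foxo1 in basophil and mast cells, -0.078 to 0.12 for Foxo3 in basophil and mast cells, -0.30 to 0.16 for Txnip in basophil and mast cells, -0.039 to 0.075 for Cat in division cells, -0.012 to 0.15 for Foxo3 in division cells, -0.22 to 0.026 for Foxo4 in division cells and -0.046 to 0.059 for Txnip in the class by age term.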
